A study of Mus musculus with 30 samples.

Results

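The 7SK RNA and the proteins that work with it on the transcription elongation kinase P-TEFb were followed through 2 time points and 4 doses of cannabidiol (CBD). The group had 7 members of the 56941 genes counted. They were *Rn7sk* (ENSMUSG00002076161), the 7SK RNA itself, the genes of its protein partners *Hexim1*, *Larp7* and *Mepce*, and the genes of the P-TEFb subunits *Cdk9*, *Ccnt1* and *Ccnt2*. *Rn7sk* was chosen because its count was lower than vehicle at each dose at 6 h, so the 6 h values against vehicle are given for all 7 members as a description with no test. The 6 other members were chosen by their known role, with earlier results of these data known.

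The cells were mHypoA-2/12, a line of mouse origin from the adult hypothalamus that was immortalized with a temperature-sensitive SV40 large T antigen. They received CBD at 0.325, 0.75, 1.5 or 3 µM, or the DMSO vehicle that all groups shared, for 6 h or 24 h, and each of the 10 groups had 3 libraries (labelled A1 to A30). RNA was read by QuantSeq 3′ mRNA-Seq, in which oligo-dT primes the reaction and 1 fragment is made near the 3′ end of each transcript. The study asked how dose and time of CBD exposure alter the transcriptome of these cells.

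All libraries came from this single line, and nothing in the labels says whether the 3 libraries of a group were separate cultures, so p-values measure the spread between libraries, which may be technical. Of the neuronal markers, *Tubb3* averaged 49.3 CPM (reads of a gene scaled to the size of its library) and *Nefm* 40.7 CPM, while *Snap25* had 4 reads, *Npy* 1 read and *Agrp* 15 reads over the 30 libraries together. The mesenchymal markers *Vim* and *Col1a1* averaged 2209 and 2063 CPM. Of the glial markers, *Aqp4* and *Olig2* had 0 reads, *Gfap* 2, *Aif1* 2 and *Mbp* 17, while *S100b* had 366 (mean 4.26 CPM). Reads on genes ranged from 1839621 to 4420675 per library, with a median of 2641725. The vehicle libraries A1 and A2 of 6 h were the shallowest of all, with 1839621 and 1919498 reads, and the third vehicle library of 6 h, A3, had 3574833.

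7SK is a short nuclear RNA made by RNA polymerase III. It holds P-TEFb, the kinase CDK9 with a cyclin T, in an inactive particle together with HEXIM proteins, while MEPCE caps its 5′ end and LARP7 binds its 3′ end. Released P-TEFb phosphorylates RNA polymerase II and the factors that hold it paused near promoters, and release from the particle follows stress signals and drugs that block transcription. These facts are background and were not measured in these libraries.

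Both ends of 7SK are shown because they bear on what an oligo-dT library can read of it, and because the short palindrome that HEXIM1 recognises lies near its 5′ end. In GENCODE M21 on GRCm38 the gene occupies chr9:78175303-78175633 on the minus strand, is 331 bases long and is annotated as misc_RNA, a noncoding class. Capitals mark each GATC, and the sequences read 5′ to 3′ on the strand of the gene, from base 1 to 120 (chr9:78175514-78175633) and from base 232 to 331 (chr9:78175303-78175402):
Rn7sk 5′ part: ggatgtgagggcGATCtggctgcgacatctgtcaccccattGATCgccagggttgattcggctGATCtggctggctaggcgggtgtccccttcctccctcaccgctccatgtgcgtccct
Rn7sk 3′ part: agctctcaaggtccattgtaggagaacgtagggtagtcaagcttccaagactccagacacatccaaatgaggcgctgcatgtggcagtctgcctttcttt

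GATC, which reads the same on both strands, started at bases 13, 42 and 64 counted from the 5′ end. Of 4744 annotated transcripts within 30 bases of this length, 66.4% held GATC and 9.04% held at least 3. The longest run of A in 7SK was 3 bases, and 67.8% of the transcripts of like length had a longer one, with a median of 4. The most A in any window of 20 bases of 7SK was 9, which was not compared with other transcripts. The sequence ended in a run of 3 T. 7SK has no poly(A) tail, so how much of it a reaction primed by oligo-dT picks up was not known, and its values are the amounts captured in each library rather than amounts in the cell. Many 7SK-like copies lie in the mouse genome, and reads with several alignments were left out of the counts, so the *Rn7sk* counts are incomplete by an unknown amount. The identifier of *Rn7sk* in the count files is newer than that of GENCODE M21 (ENSMUSG00000065037), and the pairing of symbol and identifier comes from the gene lists of the study.

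*Rn7sk* was the member with the widest range, from 2.40 CPM in A7 to 47.5 CPM in A2, a ratio of 19.8 over 30 libraries. It was also a thinly counted gene, with 725 reads in all and between 6 and 89 per library. Levels are CPM with the TMM scaling factors of edgeR over all 30 libraries, and they compare libraries for the same gene.

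At 6 h, *Rn7sk* was at 40.6, 47.5 and 6.94 CPM in the vehicle libraries A1, A2 and A3. The 12 CBD libraries of 6 h lay between 2.40 and 7.56 CPM, with a median of 4.54. A1 and A2 stood far above every other library of the experiment, while A3 lay within the range of the CBD libraries. The reads behind these values were 73, 89 and 25, and the 95% counting intervals (exact Poisson, covering counting error only) were 31.8 to 51.0 CPM for A1, 38.1 to 58.4 for A2 and 4.49 to 10.3 for A3. The intervals of A1 and A2 overlapped each other and neither overlapped that of A3.

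By dose, *Rn7sk* at 6 h was at 7.56, 7.49 and 3.496 CPM with 0.325 µM and at 7.14, 7.09 and 3.44 CPM with 0.75 µM. It was at 2.40, 5.80 and 4.22 CPM with 1.5 µM and at 4.29, 4.80 and 3.87 CPM with 3 µM. The ranges of the 4 doses overlapped, and 8 of the 12 CBD libraries were below all 3 vehicle libraries while 4 were between A3 and A1. Group means were 31.7 ± 21.7 CPM (SD, n = 3) for vehicle, 6.18 ± 2.33 for 0.325 µM, 5.89 ± 2.13 for 0.75 µM, 4.14 ± 1.70 for 1.5 µM and 4.32 ± 0.47 for 3 µM.

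**Figure D1:**
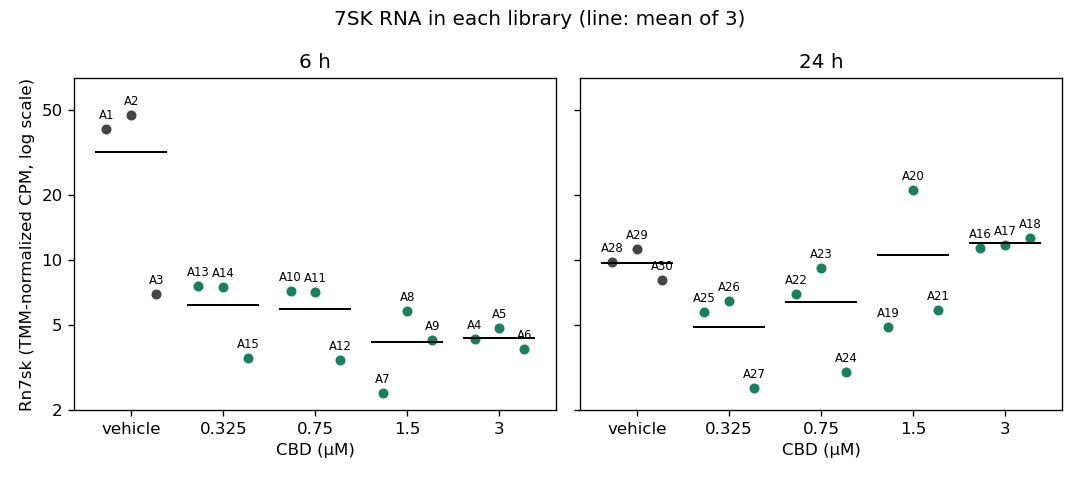
Level of *Rn7sk* in each library, in TMM-normalized CPM on a log axis, for vehicle and 4 doses of CBD at 6 h (left) and 24 h (right). Points are libraries, named A1 to A30, and lines are means of 3; A1 and A2 stand at 40.6 and 47.5 CPM, and A20 at 21.1 CPM is the highest of the other libraries.

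The fitted log2 fold change of the 4 doses together against vehicle at 6 h was −2.60 (SE 0.35), a 6.08-fold lower level. At single doses it was −2.31 (SE 0.50), −2.40 (SE 0.50), −2.89 (SE 0.53) and −2.82 (SE 0.52) from 0.325 to 3 µM. These 4 values share the same vehicle libraries, so they are not independent of each other. Of 12012 genes tested at 6 h, 0.749% passed a false discovery rate (FDR) of 0.1 for the 4 doses together, 0.241% higher and 0.508% lower, and at the single doses 0.2%, 0.0749%, 0.0999% and 0.05% passed in the order of dose. Since *Rn7sk* was chosen on these comparisons, nothing is read from its place among them.

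The size of the 6 h difference in *Rn7sk* rested on A1 and A2, which held 86.6% of the 187 reads of the vehicle group. Without A1 the log2 fold change was −2.37, without A2 it was −2.17, and without A3 it was −3.12. Without A1 and A2 together, a choice made after the values were seen, it was −0.45 (SE 0.55), and the single doses ranged from −0.74 to −0.15. The direction was the same in each of these fits. With A3 as the single vehicle library, which the fit assumes to vary like the other groups, the difference for the 4 doses together was smaller than its standard error. Over all genes, A3 was the vehicle library of 6 h that differed most. The chi-square per gene between replicate libraries was 2.15 for A1 and A2, 10.7 for A1 and A3 and 9.69 for A2 and A3. It ranged from 2.13 to 10.7 over the 30 replicate pairs, and it also grows with depth. Which of these libraries best represents the vehicle was not tested.

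**Figure D2:**
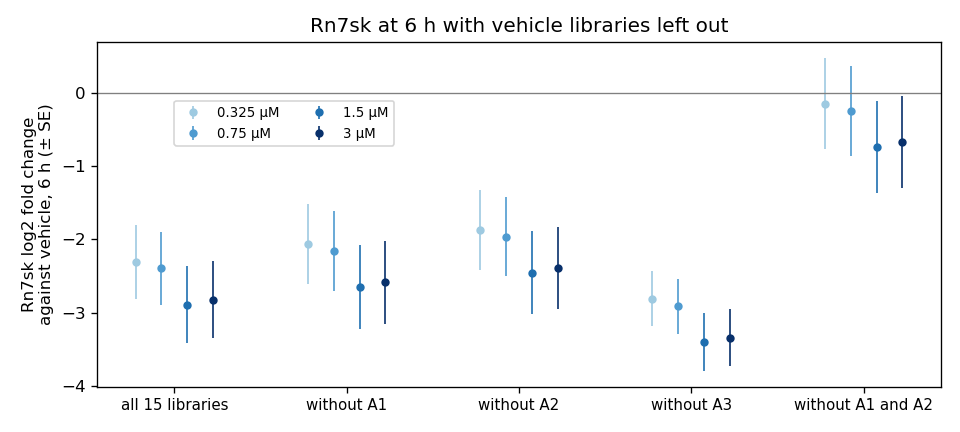
Log2 fold change of *Rn7sk* at each dose against vehicle at 6 h, with bars of 1 SE, fitted with all 15 libraries and with vehicle libraries left out. Values lie between −2.89 and −2.31 with all libraries and between −0.74 and −0.15 without A1 and A2.

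The summed level of other RNAs without a poly(A) tail was also high in A1 and A2. The list had 26 such RNAs, of which 18 were found in the count files, 6 entered the summed level (those with at least 30 reads over all libraries) and 3 passed the filter on low counts (*Rny1*, *Rny3* and *Scarna9*). Their summed level was 175 CPM in A1, 187 in A2 and 81.4 in A3, and the 12 CBD libraries of 6 h ranged from 83.8 to 143. *Rny1*, a Y RNA bound by the RO60 protein, was at 75.1 CPM in A1, 85.9 in A2 and 44.4 in A3, or 1.40, 1.61 and 0.83 times the median of the CBD libraries. *Rny3*, another Y RNA, was at 1.57, 1.72 and 0.57 times that median. *Scarna9*, a small RNA of Cajal bodies, was at 1.63, 1.27 and 0.54 times that median. For *Rn7sk* the same ratios were 8.94, 10.5 and 1.53, and those in A1 and A2 were several times those of the other RNAs. Since *Rn7sk* was chosen on the 6 h values against vehicle and the other RNAs were not, nothing is read from this gap. A1 and A2 were above all CBD libraries of 6 h in *Rn7sk* and *Rny1*. For *Rny3* A2 (75.2 CPM) was above them and A1 was level with the highest (68.4 and 67.7 CPM). For *Scarna9* A1 was level with the highest CBD library (26.7 and 26.6 CPM) and A2 (20.8 CPM) was within their range. The summed level of the replication-dependent histone genes, whose mRNAs mostly lack a tail, was 115 CPM in A1, 112 in A2 and 75.8 in A3, against 75.3 to 98.0 in the CBD libraries of 6 h. Of 18 histone genes 9 were tested at 6 h and 8 at 24 h, and 0 passed for the 4 doses together (smallest edgeR FDR 0.232 and 0.508). At each time 1 had an unadjusted p under 0.05 (10.3% and 6.73% of all genes did). The most highly counted histone genes were *Hist1h1e* at 0.05 (SE 0.22) and −0.60 (SE 0.20) and *Hist3h2a* at −0.20 (SE 0.27) and 0.04 (SE 0.19) on the log2 scale at 6 h and 24 h. None of the 3 tested RNAs of the untailed list passed the FDR of 0.1 for the 4 doses together at 6 h (smallest edgeR FDR 0.486, 1 with an unadjusted p under 0.05). The part of capture, depth or library quality in the *Rn7sk* values was not tested.

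**Figure D3:**
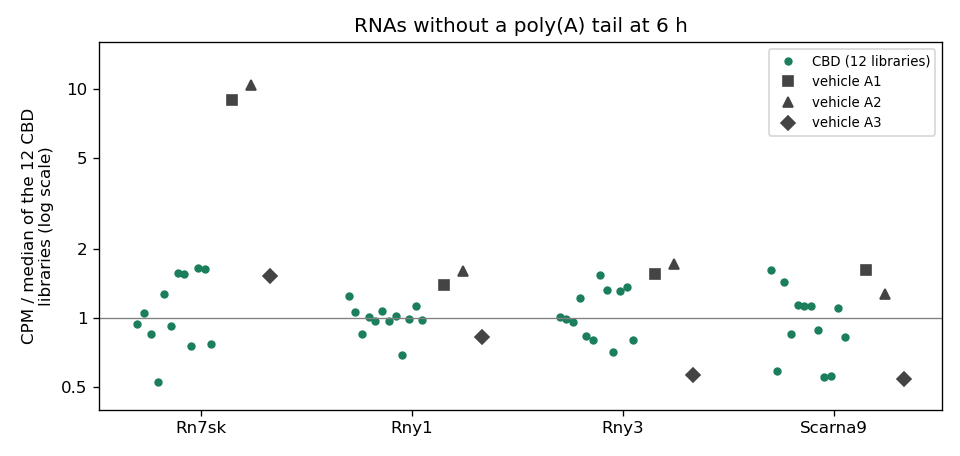
Level of *Rn7sk* and of 3 other RNAs without a poly(A) tail in the 15 libraries of 6 h, each divided by the median of the 12 CBD libraries, on a log axis. Green circles are CBD libraries and dark symbols the vehicle libraries; A1 and A2 are at 8.94 and 10.5 for *Rn7sk* and between 1.27 and 1.72 for the others.

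No test among the 4 doses of 6 h is given for *Rn7sk*, since the choice of the gene used these libraries.

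At 24 h, *Rn7sk* was at 9.78, 11.3 and 8.08 CPM in the vehicle libraries A28, A29 and A30. It was at 5.74, 6.41 and 2.54 CPM with 0.325 µM and at 6.92, 9.18 and 3.01 CPM with 0.75 µM. The libraries of 0.325 µM were all below the vehicle, and those of 0.75 µM overlapped it by 1 library. With 1.5 µM the values were 4.86, 21.1 and 5.83 CPM, and with 3 µM they were 11.3, 11.8 and 12.7 CPM. The 3 libraries of 3 µM were all above the vehicle by a small margin, and of those of 1.5 µM 1 was above and 2 were below it. Of the 12 CBD libraries, 4 were above all vehicle libraries, 7 below them and 1 within their range.

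None of the 7 members passed the FDR of 0.1 for the 4 doses together at 24 h, where 0.107% of 12118 genes did. edgeR gave an unadjusted p under 0.05 for 1 member, *Mepce*, against 6.73% of all genes, and DESeq2 called 0 members. For *Rn7sk* the log2 fold change was −0.30 (SE 0.34, edgeR FDR = 0.933). At single doses it was −0.97 (SE 0.44, edgeR FDR = 0.563) for 0.325 µM and −0.63 (SE 0.46, FDR = 0.820) for 0.75 µM. It was 0.08 (SE 0.43, FDR = 0.983) for 1.5 µM and 0.30 (SE 0.43, FDR = 0.848) for 3 µM. The value at 1.5 µM rested on A20, and without it the log2 fold change was −0.84.

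The group means of *Rn7sk* at 24 h went in the order of dose, from 4.89 ± 2.07 CPM (SD, n = 3) through 6.37 ± 3.12 and 10.6 ± 9.11 to 11.9 ± 0.71 CPM at 3 µM. This order rested on A20, since without it the mean of 1.5 µM was 5.34 CPM (n = 2), below that of 0.75 µM. The test for any difference among the 4 doses gave an edgeR FDR of 0.284, with an unadjusted p of 0.0294, while 1.93% of genes passed an FDR of 0.1 and 14.5% had an unadjusted p under 0.05. None of the members passed this test, and 1, *Rn7sk*, had an unadjusted p under 0.05. DESeq2 called 0 members, but it gave no FDR for *Rn7sk* and *Cdk9* in this test, so its count does not cover them. With no filter on low counts the FDR of *Rn7sk* was 0.0677, and with each library left out in turn it lay between 0.192 and 0.498. Over the same doses, all 3 other untailed RNAs tested had an unadjusted p under 0.05, with a smallest FDR of 0.101. The summed level of the 6 untailed RNAs was 63.8 to 99.0 CPM with 0.325 µM, 57.6 to 85.2 with 0.75 µM, 65.4 to 94.4 with 1.5 µM and 95.3 to 142 with 3 µM, and its part in the *Rn7sk* values was not tested.

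Ordered by mean level over all 10 groups, *Rn7sk* was highest in the vehicle of 6 h, followed by 3 µM, 1.5 µM and vehicle at 24 h, 0.75 µM at 24 h, 0.325 and 0.75 µM at 6 h, 0.325 µM at 24 h, and 3 and 1.5 µM at 6 h. In this order, 8 of the 9 pairs of neighbours were closer than the larger of their SDs. The exception was vehicle and 0.75 µM at 24 h, at 9.711 ± 1.597 and 6.37 ± 3.12 CPM, a comparison that did not pass the test above. The place of 1.5 µM at 24 h in this order also rested on A20.

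Between the times, *Rn7sk* in the CBD libraries had a median of 4.54 CPM at 6 h and 6.66 CPM at 24 h, and 5 of the 12 libraries of 24 h were above the highest of 6 h. The log2 fold change of 24 h against 6 h was 0.64 (SE 0.28) in CBD and −1.66 (SE 0.47) in vehicle, and the change from vehicle to CBD differed between the times by 2.30 (SE 0.55). These values use the 6 h libraries and are given with no test. Without A1 and A2 the vehicle value of *Rn7sk* was 0.49 (SE 0.62) and the difference between the times was 0.16 (SE 0.65), while the CBD value was 0.66 (SE 0.24).

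Of the protein genes, the highest library was between 1.44 and 2.52 times the lowest for 5 and 6.51 times for *Cdk9*. *Hexim1* (chromosome 11, GRCm38), whose protein inhibits P-TEFb once bound to 7SK, was at 31.1, 27.2 and 38.3 CPM in the vehicle libraries of 6 h. The CBD libraries of 6 h ranged from 22.2 to 42.0 CPM with a median of 31.2, and 7 of the 12 lay within the range of the vehicle. The log2 fold change for the 4 doses together was −0.03 (SE 0.17), and since its sign turned when A3 was left out (0.13), no direction is given. At 24 h *Hexim1* was at 28.9, 31.2 and 31.6 CPM in vehicle and at 19.8 to 40.4 CPM in CBD, with 6 CBD libraries above the vehicle and 5 below it. Its change was −0.02 (SE 0.16, edgeR FDR = 0.995).

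*Larp7* (chromosome 3), which encodes the protein that stays on the 3′ end of 7SK, was at 147, 106 and 126 CPM in the vehicle libraries of 6 h and at 96.2 to 177 CPM in CBD. With 0.75 µM its 3 libraries stood at 162, 177 and 167 CPM, above all vehicle libraries, and the log2 fold change at that dose was 0.42 (SE 0.17). Those of 0.325 µM reached from 96.2 to 159 CPM, and the test for any difference among the 4 doses at 6 h gave *Larp7* an edgeR p of 0.0560 (FDR = 0.9998). At 24 h it was at 133, 154 and 127 CPM in vehicle and at 132 to 169 CPM in CBD, with a change of 0.10 (SE 0.10, edgeR FDR = 0.920), and 9 of 12 CBD libraries were within the range of the vehicle. Micro-RNA genes of the *Mir302* cluster lie on the opposite strand of *Larp7* and had at most 1 read.

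*Mepce* (chromosome 5), the gene of the methylphosphate capping enzyme of 7SK, had the smallest FDR of the protein genes between the times in the CBD libraries. At 6 h it was at 62.8, 52.8 and 43.9 CPM in vehicle and at 33.7 to 60.5 CPM in CBD, with a median of 48.8. The CBD libraries lay within the range of the vehicle in 9 of 12 cases and below it in 3. The log2 fold change was −0.12 (SE 0.14) for the 4 doses together and −0.40 (SE 0.19) for 3 µM, where the libraries were at 33.7, 47.1 and 39.5 CPM. The value for the 4 doses was 0.02 without A1 and 0.16 without A1 and A2, so no direction is given. The test for any difference among doses at 6 h gave *Mepce* an edgeR p of 0.0521 (FDR = 0.9998).

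At 24 h *Mepce* was at 56.6, 53.4 and 56.6 CPM in vehicle, and the CBD libraries ranged from 53.5 to 84.8 CPM with a median of 68.6. Of these, 11 of 12 were above all vehicle libraries and 1, with 0.75 µM, lay within their range. The log2 fold change was 0.30 (SE 0.12), with an unadjusted p of 0.0201 and an edgeR FDR of 0.667, so the difference did not pass the threshold over all genes. Single doses gave 0.26 (SE 0.15), 0.19 (SE 0.15), 0.40 (SE 0.15) and 0.35 (SE 0.15) from the lowest to the highest, with edgeR FDRs from 0.511 to 0.841. At single doses of 24 h, 0 members passed in edgeR or DESeq2, where the shares of all genes that passed were 0.066%, 0.0825%, 0.0413% and 0.00825% in the order of dose.

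Unadjusted p-values under 0.05 at single doses of 24 h came from *Rn7sk* at 0.325 µM (0.0368) and from *Mepce* at 1.5 µM (0.0131) and 3 µM (0.0299), with 0 members at 0.75 µM. For all genes the shares with such a p were 8.33%, 7.63%, 7.34% and 9.16% in the order of dose. Among the doses of 6 h, 0 of the 6 protein genes passed an FDR of 0.1 and 0 had an unadjusted p under 0.05, DESeq2 called 0, and of all genes 0% passed the FDR while 3.76% had such a p.

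Of the kinase itself, *Cdk9* (chromosome 2) was thinly counted, with 691 reads in all and 7 to 68 per library. In the vehicle libraries of 6 h it was at 5.01, 9.07 and 18.9 CPM, and the CBD libraries ranged from 2.90 to 10.7 CPM. A3 was the single high library here, so that the vehicle library that was lowest in *Rn7sk* was the highest in *Cdk9*. The counting interval of A3 was 14.7 to 23.9 CPM, and that of A1 was 2.29 to 9.5. The log2 fold change of the 4 doses against vehicle was −0.74 (SE 0.37) with all libraries, −0.03 without A3 and −1.44 without A1 and A2. At 24 h *Cdk9* was at 11.2, 5.97 and 9.43 CPM in vehicle and at 4.51 to 11.3 CPM in CBD, with 9 of 12 within the range of the vehicle and a change of −0.20 (SE 0.28, edgeR FDR = 0.949).

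*Ccnt1* (chromosome 15), which encodes cyclin T1, was at 131, 123 and 125 CPM in the vehicle libraries of 6 h. The CBD libraries ranged from 98.8 to 135 CPM, of which 11 of 12 were below all vehicle libraries and 1, with 0.325 µM, was above them. The log2 fold change for the 4 doses together was −0.17 (SE 0.11), and single doses went from −0.12 (SE 0.14) to −0.24 (SE 0.14). At 24 h *Ccnt1* was at 105, 135 and 98.6 CPM in vehicle, its CBD libraries lay between 93.6 and 118 CPM with 10 of 12 within that range, and the change was −0.05 (SE 0.10, edgeR FDR = 0.978). An antisense gene, *9330020H09Rik*, overlaps *Ccnt1* and had 61 reads against 9461, and whether the counting used strand is not given in the sources used here.

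*Ccnt2* (chromosome 1), the gene of cyclin T2, was at 33.9, 31.0 and 41.7 CPM in the vehicle libraries of 6 h and at 27.6 to 45.9 CPM in CBD, with a change of 0.03 (SE 0.16). Its sign turned when A2 was left out (−0.05) and without A1 and A2 together (−0.17), so no direction is given. At 24 h it was at 62.9, 46.1 and 47.8 CPM in vehicle and at 32.9 to 56.1 CPM in CBD, with 6 of 12 CBD libraries below the vehicle and 6 within its range. The change was −0.20 (SE 0.15, edgeR FDR = 0.887), and the largest at a single dose was −0.37 (SE 0.20, FDR = 0.575) with 3 µM.

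**Figure D4:**
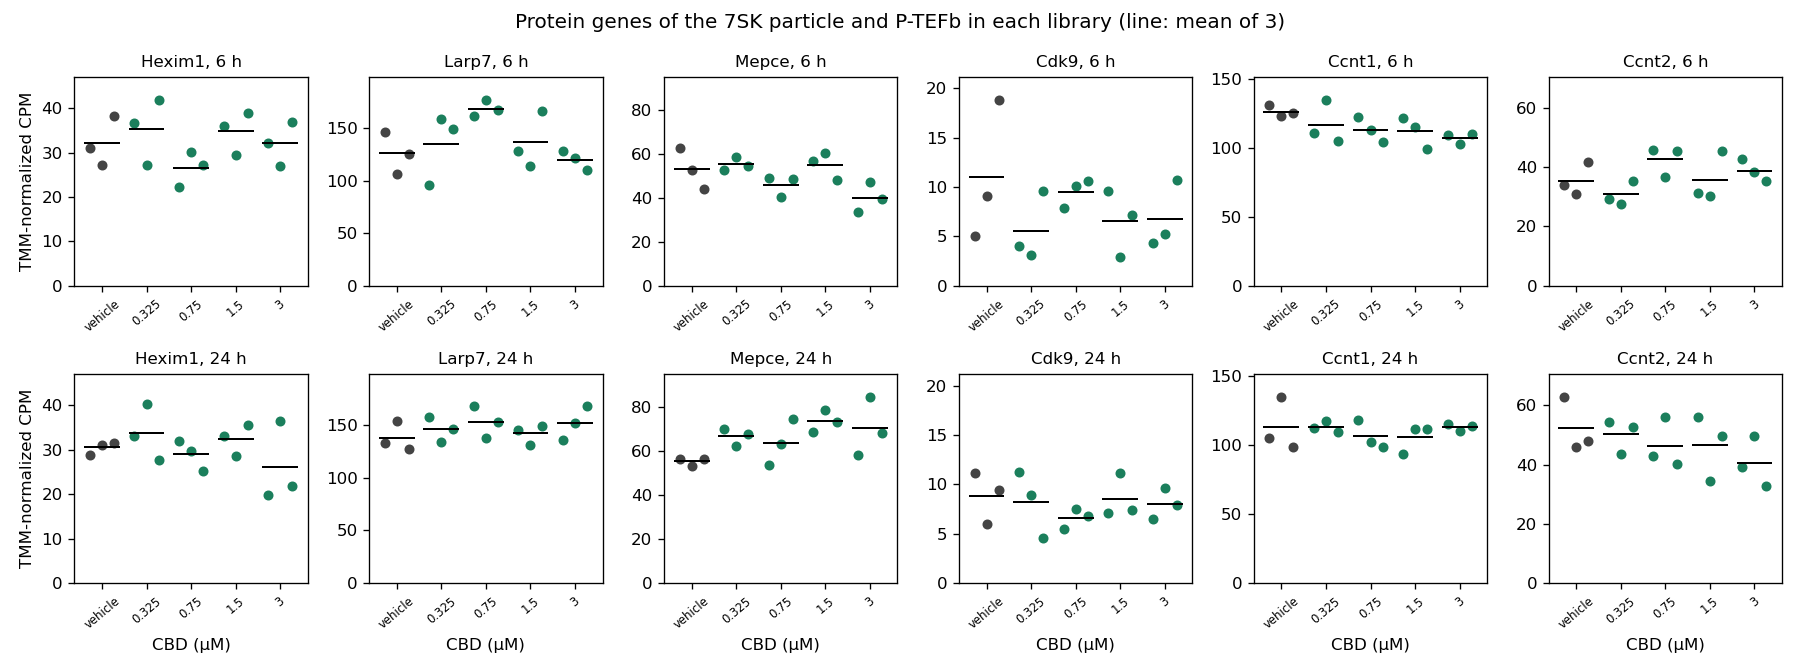
Level of the 6 protein genes in each library, in TMM-normalized CPM from 0, for vehicle and 4 doses of CBD at 6 h (top) and 24 h (bottom). Points are libraries and lines are means of 3; *Mepce* in CBD lies between 33.7 and 60.5 CPM at 6 h and between 53.5 and 84.8 CPM at 24 h, and the vehicle point of *Cdk9* at 18.9 CPM is A3.

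Between the times, 2 of the 6 protein genes passed the FDR of 0.1 in the CBD libraries, where 53.6% of 12790 genes did (26% higher and 27.6% lower). *Mepce* was higher at 24 h than at 6 h by 0.50 on the log2 scale (SE 0.08, edgeR FDR = 5.3e-06), and 10 of the 12 CBD libraries of 24 h were above the highest of 6 h. *Ccnt2* was higher by 0.32 (SE 0.10, edgeR FDR = 0.00918), with 6 of 12 above the highest of 6 h. *Hexim1* (−0.08, FDR = 0.555), *Larp7* (0.10, FDR = 0.312), *Cdk9* (0.17, FDR = 0.565) and *Ccnt1* (−0.03, FDR = 0.692) did not pass. Without the 1.5 µM library A9 of 6 h, *Larp7* passed as well, at 0.16 (FDR = 0.0935).

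In the vehicle libraries 1 of the 6 protein genes passed between the times, where 26.7% of genes did (12.5% higher and 14.2% lower). *Ccnt2* was higher at 24 h by 0.55 (SE 0.20, edgeR FDR = 0.0478), and the 3 vehicle libraries of 24 h, from 46.1 CPM, were above those of 6 h, up to 41.7 CPM. This call for *Ccnt2* was lost without A1 (FDR = 0.101), without A2 (0.159), without A28 (0.247) and without A1 and A2 together (0.418). *Mepce* in vehicle differed by 0.08 (SE 0.16, FDR = 0.783). Time of exposure and any difference in handling between the 6 h and the 24 h cultures cannot be told apart.

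The change from vehicle to CBD was compared between the times for the 6 protein genes, and none passed the FDR of 0.1, where 0.235% of genes did and 6.52% had an unadjusted p under 0.05. By edgeR 1 member, *Mepce*, had an unadjusted p under 0.05, and DESeq2 called 0. The difference for *Mepce* was 0.42 (SE 0.18, edgeR FDR = 0.731), and it was 0.16 (SE 0.24) without A1 and A2. The values of the others were 0.01 (SE 0.24) for *Hexim1*, −0.03 (SE 0.17) for *Larp7*, 0.54 (SE 0.48) for *Cdk9*, 0.13 (SE 0.15) for *Ccnt1* and −0.23 (SE 0.22) for *Ccnt2*.

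**Figure D5:**
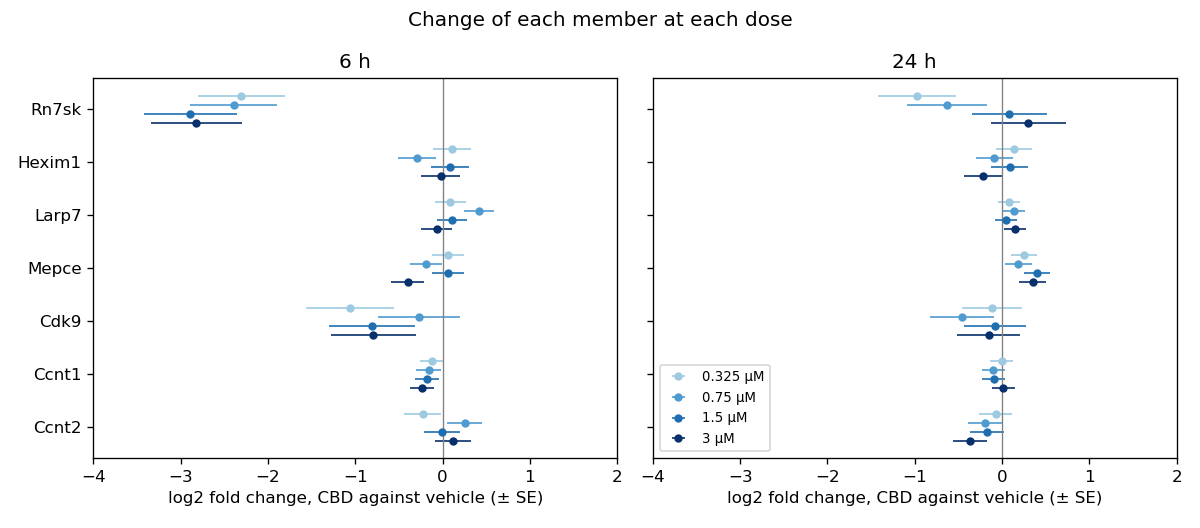
Log2 fold change of each member against vehicle at 4 doses of CBD, at 6 h (left) and 24 h (right), with bars of 1 SE. *Rn7sk* lies between −2.89 and −2.31 at 6 h and between −0.97 and 0.30 at 24 h, and the protein genes lie between −1.07 and 0.42 at 6 h and between −0.46 and 0.40 at 24 h.

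Either cyclin T can partner CDK9, and *Ccnt2* made up 17.03% to 31.6% (median 24.4%) of the cyclin T reads in the 15 libraries of 6 h and 22.4% to 37.5% (median 30.8%) in those of 24 h. The lowest share was in 0.325 µM at 6 h, at 21.1% ± 4.14 (SD, n = 3), and the highest in vehicle at 24 h, at 31.9% ± 6.06. The ranges of the times overlapped, and the share was not tested as such.

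Likeness to *Rn7sk* was measured by Pearson's r of log2 CPM over 30 libraries after the mean of each time was subtracted, as a description. *Ccnt1* had the highest value of the protein genes (0.47) and *Ccnt2* the lowest (−0.33), with *Hexim1* at −0.24, *Larp7* at −0.18, *Mepce* at 0.20 and *Cdk9* at 0.03. Over all genes the highest were *Sqstm1* (0.79), *Plin2* (0.77), *Mndal* (0.76), *Slc7a1* (0.75) and *Fer1l6* (0.74), and the lowest were *Hs6st2* (−0.74), *Serpinf1* (−0.73) and *Pitpnc1* (−0.72). The libraries are shared by all genes, and A1 and A2 weigh heavily here. Without them, the values fell to 0.46 for *Sqstm1*, 0.44 for *Plin2* and 0.26 for *Mndal*, with *Slc7a1* at 0.53 and *Fer1l6* at 0.59, while *Hs6st2* was at −0.58, *Serpinf1* at −0.62 and *Pitpnc1* at −0.58. The 5 highest genes were then others, led by *Rps12-ps22* (0.69), *Nmt2* (0.67) and *Tlk1* (0.66), with 0 of the 5 shared, and 0 of the 3 lowest were shared. Of the protein genes without A1 and A2, *Ccnt1* was at 0.38, *Ccnt2* at −0.31, *Hexim1* at −0.22, *Larp7* at −0.09, *Mepce* at −0.02 and *Cdk9* at 0.08. Within the times, *Cdk9* was at −0.12 at 6 h and 0.49 at 24 h. Over all 30 libraries the genes most like *Hexim1* were *Scarb2* (0.75), *Ppt1* (0.71) and *Calhm2* (0.70).

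The wider machinery around 7SK and P-TEFb was read through 5 lists with 74 genes. In each of them 0 genes passed the FDR of 0.1 for the 4 doses together at 6 h or at 24 h or among the doses of either time. At 6 h, 71 of the 74 were tested, 6 had an unadjusted p under 0.05 (10.3% of all genes did), the smallest edgeR FDR was 0.254, and DESeq2 called 0. Of the 71, 30 were higher in CBD, and the median log2 fold change was −0.07 beside −0.02 over all genes. At 24 h, 72 were tested, 6 had such a p (6.73% of all genes did), the smallest FDR was 0.604, and DESeq2 called 0. The median was then 0.04 beside −0.01 over all genes. Among the doses of 6 h, 2 had such a p (3.76% of all genes did), the smallest FDR was 0.9998 and DESeq2 called 0. Among the doses of 24 h, 10 of 72 had an unadjusted p under 0.05 (14.5% of all genes did), and the smallest FDR was 0.155. DESeq2 called 1 of them there, and 526 of all genes.

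The first list held 15 genes of proteins that bind 7SK or take part in the release of P-TEFb. Its most highly counted genes were *Brd2*, a bromodomain protein, at a mean of 793 CPM with a log2 fold change of −0.15 (SE 0.10, edgeR FDR = 0.654) at 6 h and −0.08 (SE 0.09, FDR = 0.932) at 24 h, and *Trim28*, at 351 CPM with −0.01 (SE 0.10) and −0.03 (SE 0.09). In the list of 10 super elongation complex genes, in which P-TEFb acts once released, 7 were tested at 6 h and 8 at 24 h. *Mllt3* was at 0.02 (SE 0.14) and 0.03 (SE 0.11) there and the scaffold gene *Aff4* at 0.08 (SE 0.14) and 0.04 (SE 0.11). Of the 16 pausing and elongation factors, on which P-TEFb acts or with which it works, the PAF complex gene *Ctr9* was at −0.12 (SE 0.13) and 0.01 (SE 0.09) and *Rtf1* at 0.21 (SE 0.10, edgeR FDR = 0.504) and 0.27 (SE 0.10, FDR = 0.604). Of 8 genes of other transcription kinases, *Ccnk* was at −0.07 (SE 0.20) and 0.31 (SE 0.16) and *Cdk12*, the kinase that cyclin K serves, at −0.15 (SE 0.15) and 0.01 (SE 0.12).

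The last list held 25 genes that make or stabilize 7SK or regulate its transcription, among them subunits of RNA polymerase III. The median of this list at 6 h was −0.09 on the log2 scale, and 10 of 25 genes were higher in CBD. By edgeR 2 had an unadjusted p under 0.05 (10.3% of all genes did), with a smallest FDR of 0.331. At 24 h the median was 0.08, 17 of 25 were higher, and 2 had such a p (6.73% of all genes did) with a smallest FDR of 0.651. With 3 µM at 24 h 6 of 25 had such a p (9.16% of all genes did, smallest FDR 0.446). With 0.325, 0.75 and 1.5 µM at 24 h 1, 1 and 2 had one. Among the doses of 24 h 6 had one (14.5% of all genes did, smallest FDR 0.206). *Ssb*, which encodes the La protein that binds the 3′ end of new polymerase III transcripts, was at 0.08 (SE 0.13) at 6 h and 0.04 (SE 0.10) at 24 h.

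Between the times, 35 of the 72 genes of the 5 lists passed in CBD (48.6%, 13 higher and 22 lower at 24 h) and 20 in vehicle (27.8%, 4 higher and 16 lower), near the 53.6% and 26.7% of all genes. Among the genes named above, *Ctr9* was higher at 24 h in CBD by 0.73 (edgeR FDR = 9.0e-11) and in vehicle by 0.60 (FDR = 0.00217). *Rny1* and *Rny3* were lower at 24 h in CBD, with log2 fold changes of −0.52 (edgeR FDR = 0.00031) and −0.58 (FDR = 0.00132), and *Rn7sk* was at 0.64. In vehicle *Rny3* was lower at 24 h by a log2 fold change of −0.83 (edgeR FDR = 0.0386), *Rny1* was at −0.56 (FDR = 0.0746) and did not pass, and *Rn7sk* was at −1.66.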

How the data were processed

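RNA of 30 libraries was sequenced from the 3′ end. The authors trimmed reads with Flexbar, mapped them with STAR 2.7.5c to GRCm39 and counted them per gene of Ensembl release 109 with HTSeq 1.99.2. The deposited values are raw counts per gene with no normalization, and the summary lines (17.7% to 22.2% of reads outside genes) were left out.

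Counts were fitted with edgeR 4.0.16 in R 4.3.3 (filterByExpr, TMM, a mean per group, quasi-likelihood F-test), per time (15 libraries) and over all 30. Contrasts were each dose and the 4 doses together against vehicle, any difference among the doses, 24 h against 6 h, and the difference between the times. The FDR is the Benjamini-Hochberg value over every gene of a contrast, with the threshold of 0.1 that the study used with DESeq2. All 7 members passed the filter at both times. Log2 CPM for the likeness used a prior count of 2.

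Alternatives were DESeq2 1.42.0, a fit of only the groups compared, RLE factors, each library left out, mitochondrial genes removed, and low counts either unfiltered or held to at least 10 in every library. Leaving out A1 and A2 together was added after the values were seen. The members and lists were chosen with earlier results of these data known. Of each list, genes that passed a CBD contrast were to be named, or else the 2 with the highest mean CPM, with 5 highest and 3 lowest genes in likeness to *Rn7sk* and 3 highest for *Hexim1*. *Scarna9* and the genes most like *Rn7sk* without A1 and A2 were named after their values were seen, and 1 gene that the rule names is not reported here. The fit was tested on simulated data. GENCODE M21 (GRCm38) gave symbols and positions and is of an older build than the counts. At the depth of these libraries, 3 counts were worth 0.839 CPM in A3 and 1.63 CPM in A1, and intervals cover counting error only. The viability, caspase and qPCR measurements were not used here.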

Additional observations from a re-analysis of the deposited data

Results flagged for a closer look

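With 3 µM of CBD, *Rn7sk* and *Mepce* each had all 3 libraries below the mean of the vehicle at 6 h and all 3 above it at 24 h. For *Rn7sk* the log2 ratio of the group means was −2.88 at 6 h and 0.30 at 24 h, a difference of 3.17. For *Mepce* it was −0.41 and 0.34, a difference of 0.75. The difference between the times was not tested at this dose. *Rn7sk* was chosen on its 6 h values, so its values here are a description only. The share of all genes with such a pattern is not given here. For both genes the vehicle mean of 6 h includes A1 and A2, in which *Mepce* was at 62.8 and 52.8 CPM against 43.9 in A3. Against A3 alone, 1 of the 3 libraries of 3 µM at 6 h was above the vehicle in *Mepce*, at 47.1 CPM. In *Rn7sk* these libraries were at 4.29, 4.80 and 3.87 CPM and A3 was at 6.94 CPM, a far smaller gap than to the vehicle mean of 31.7 CPM.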

How the results depend on the processing

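No paired analysis was possible because the replicate numbers are only the order of the libraries and no label shares them between groups. Of 1441 values of single members with 1 choice changed or 1 library left out, 1405 kept their direction and their side of the threshold or moved by less than the spread. Without A1 and A2 together 29 of 39 did, 9 moved further and 1 lost its call (*Ccnt2* between the times in vehicle). The 9 were *Rn7sk* against vehicle at 6 h, between the times in vehicle (0.49, a turned sign) and in the difference between the times, and *Mepce* (0.16, a turned sign) and *Cdk9* (−1.44) for the 4 doses at 6 h. The members past the threshold were 1 among the doses of 24 h with no filter on low counts (0 otherwise), and 0 between the times in vehicle without A1 and A2 (0 to 1 with single libraries left out, 1 with all). For *Rn7sk* at 6 h the value without A1 and A2 was −0.45. With no filter on low counts the difference between the times for *Hexim1* was −0.018. Directions turned when single libraries were left out for small differences. Against vehicle at 24 h, *Rn7sk* at 1.5 µM ranged from −0.84 to 0.41, and over the 4 doses *Hexim1* from −0.099 to 0.022, *Cdk9* from −0.41 to 0.012 and *Ccnt1* from −0.13 to 0.10. Between the times in vehicle, *Hexim1* ranged from −0.19 to 0.081, *Mepce* from −0.042 to 0.22 and *Cdk9* from −0.68 to 0.36, and in CBD *Ccnt1* from −0.045 to 0.0018. The difference between the times ranged from −0.15 to 0.12 for *Hexim1*, from −0.15 to 0.073 for *Larp7* and from −0.17 to 0.86 for *Cdk9*. The cause was not tested.

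Counts over all genes past the threshold moved more. For the 4 doses at 6 h, 90 genes became 66 to 263 under other settings, 51 to 304 with single libraries left out and 582 without A1 and A2. At 24 h 13 became 12 to 46 and 1 to 47, and among the doses of 24 h 234 became 220 to 783 and 9 to 1085. The 30 genes that differed between the times became 27 to 87, 2 to 45 and 351. At least 10 counts in every library leaves out *Rn7sk* and *Cdk9* in some fits, which gave no value there. For both genes DESeq2 also gave no FDR for a difference among the doses of 24 h. For the pooled contrasts all groups are compared, so a fit of only those groups is the same fit. *Rn7sk* and *Cdk9* had as few as 6 and 7 reads in a library, and the size of difference detectable at such counts was not estimated.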
